A study of Mus musculus with 8 samples.

Results

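The genes described here set whether a cell enters apoptosis: 8 members of the Bcl2 family (Bcl2, Bcl2l1, Bax, Bak1, Bcl2l11, Hrk, Bbc3 and Pmaip1), the death ligand gene Fasl and the gene of its receptor, Fas. They were taken as all non-control probes whose gene name in the scanner files is one of these 10 genes, which gave 10 of 34821 gene names and 12 of 55681 probes, with 2 probes each for Bcl2l1 and Bcl2l11. RNA came from testes of juvenile C57BL/6 mice in 4 groups of 2 arrays: Ip6k1-/- (knockout) at 26 dpp (days postpartum), Ip6k1+/+ (wild type) at 26 dpp, 17 dpp knockout and 17 dpp wild type. Per the labels, all were littermates from crosses of Ip6k1+/- mice, the 17 dpp animals were not yet weaned, the 26 dpp animals were, and the 2 samples of a group were biological replicates. Ip6k1 is the gene of a kinase that adds a phosphate to inositol hexakisphosphate, and the part of the gene that the knockout allele lacks is not given in the sources used here.

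In the mitochondrial pathway of apoptosis, Bcl2 and Bcl-xL (from Bcl2l1) restrain Bax and Bak, the proteins that open the outer mitochondrial membrane and release cytochrome c. The BH3-only proteins, here Bim (Bcl2l11), Hrk, Puma (Bbc3) and Noxa (Pmaip1), counter proteins of the family that restrain Bax and Bak. Fas ligand acts from outside the cell through Fas and caspase-8. In the juvenile mouse testis the first wave of spermatogenesis is accompanied by a wave of germ cell apoptosis, and male mice without Bax are sterile.

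Where a gene had several probes, their sequences show that they read different stretches, so they are given apart. The Bcl2l1 upstream probe (A_52_P510877, chr2:152655185-152655244 on mm9, minus strand) starts 674 bases into the transcript it was designed on, and the downstream probe (A_55_P1974877, chr2:152606404-152606463) 2311 bases into it. Of the downstream probe 30 bases are printed, because they hold the polyadenylation signal letters AATAAA, in capitals, which the other 11 probes lack. The Bcl2l11 RefSeq probe (A_51_P484880) was designed on a RefSeq transcript and spans 11096 bases of the genome (chr2:127972893-127983988, plus strand), so its 60 bases cross a splice junction. A Bcl2l11 Ensembl probe (A_52_P348214, chr2:127954736-127955417), designed on an Ensembl transcript, spans 682 bases.
Bcl2l1 upstream probe: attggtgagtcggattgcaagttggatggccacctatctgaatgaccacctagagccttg
Bcl2l1 downstream probe, bases 22 to 51: gtgcagttcagtAATAAAtggtgtctgtga
Bcl2l11 RefSeq probe: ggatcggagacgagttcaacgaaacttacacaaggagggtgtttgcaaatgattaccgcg

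Levels are log2 of the processed signal relative to the 75th percentile of the same array, so 0 is that percentile. Between 59.8% and 65.6% of spots were well above background on an array. Ip6k1 itself (10 spots) read 1.41 and 1.30 in 26 dpp knockout, 2.79 and 2.77 in 26 dpp wild type, 1.36 and 1.49 in 17 dpp knockout, and 2.19 and 2.30 in 17 dpp wild type. All 4 knockout arrays thus lay below all 4 wild type arrays. The mean difference of −1.12 did not pass over all probes (limma adjusted p = 0.239). The probe was well above background on every array. Whether it lies in the part that the allele lacks is not known, so it may not check the genotype. One library, replicate 2 of 26 dpp knockout, was nearer to the 17 dpp arrays (Pearson r of 0.918 to 0.946 over the probes) than to its own replicate (0.867), which reached 0.991 and 0.988 with 26 dpp wild type. Members' comparisons that use it, and medians over gene lists, are therefore also given without it, where the remaining knockout array is assumed to vary like the other groups. All 8 arrays were on 1 slide and in 1 scan, with the 17 dpp arrays in one row of the slide and the 26 dpp arrays in the other, so age and slide row cannot be told apart.

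All 12 probes were among the 37810 tested, a set that left out every probe that no group had well above background on its 2 arrays. Fasl met that through 26 dpp wild type alone, Hrk through the 17 dpp groups, and the Bcl2l11 Ensembl probe through 26 dpp knockout and 17 dpp wild type. Such probes were bound to differ between groups, so the calls of these probes and counts over the 12 are descriptions. In each test limma used the spread of all 8 arrays, and an adjusted p under 0.05 over all probes counted as passed.

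**Figure D1:**
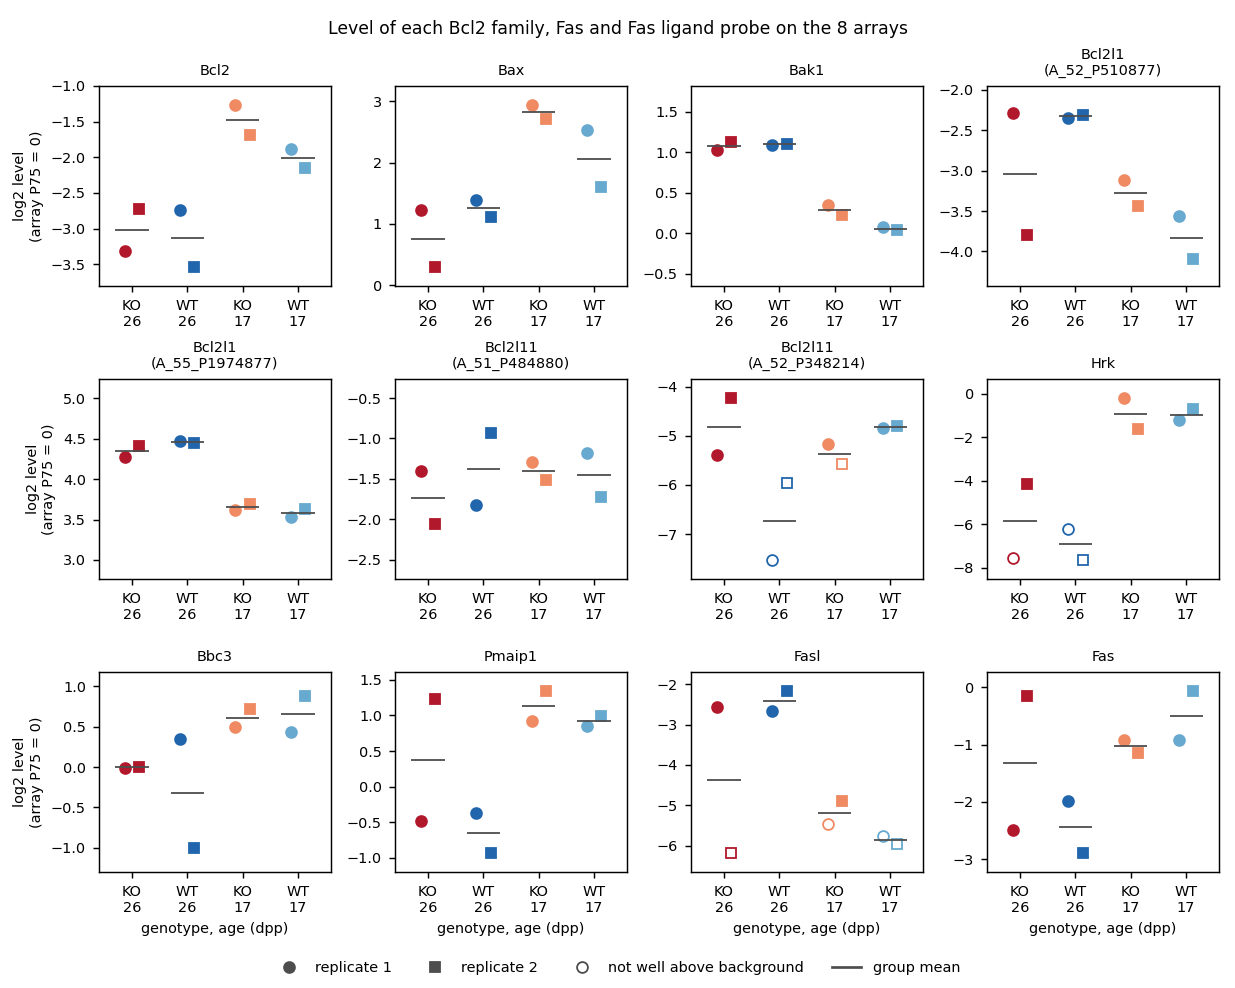
Log2 level of each of the 12 probes (vertical axis, each array's 75th percentile at 0, scale differing between panels) in knockout and wild type testes at 26 and 17 dpp, with 1 point per array and a line at the mean of 2 arrays. Open points were not well above background. Hrk lies between −7.63 and −4.16 on the 26 dpp arrays and between −1.63 and −0.21 on the 17 dpp arrays.

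The calls among these genes came with age. In knockout, Hrk, Bax and Bcl2 were lower at 26 than at 17 dpp. In wild type, Fasl, Bak1 and the Bcl2l1 downstream probe were higher at 26 dpp, while Hrk and the Bcl2l11 Ensembl probe were lower. The 3 of 12 probes that passed in knockout stand beside 14.6% of all probes tested (6.81% higher and 7.84% lower), and the 5 of 12 in wild type beside 43.4% (17.9% higher and 25.5% lower), so neither count sets the members apart from the array as a whole. At an unadjusted p under 0.05 there were 5 of 12 in knockout and 9 of 12 in wild type, beside 34.4% and 56.2%. The median difference over the 12 probes was −0.31 in knockout and −0.89 in wild type, beside −0.33 and −0.47 over all probes. Testes were measured whole, so fewer cells of a type and less RNA per cell cannot be told apart.

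These calls depended on single arrays. In knockout, 0 of the 12 passed without any 1 of the knockout arrays at 17 dpp or of the 4 wild type arrays, and 8 passed without 26 dpp knockout replicate 2, beside 57% of all probes in that fit. In wild type, 0 passed when any 1 of the 4 wild type arrays was left out, 9 when either knockout array at 26 dpp was, beside 67.2% of all probes, and 2 when either at 17 dpp was. With array weights the 3 knockout calls were lost (adjusted p = 0.344 for Bcl2, 0.291 for Bax and 0.234 for Hrk), and with the replicate number as a block those of Bcl2 (0.0794) and Hrk (0.0758) were. Over all probes the knockout count likewise moved between 0 and 21552, and the wild type count between 0 and 25404, as 1 array was left out.

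Of the anti-apoptotic genes, Bcl2 was lower at 26 dpp and Bcl2l1 higher. Bcl2 (chr1:108608970-108609029) read −3.32 and −2.73 in 26 dpp knockout, −2.74 and −3.53 in 26 dpp wild type, −1.27 and −1.69 in 17 dpp knockout, and −1.89 and −2.15 in 17 dpp wild type. Every 26 dpp array lay below every 17 dpp array. Bcl2 fell in knockout by 1.54 on the log2 scale (SE 0.381, limma adjusted p = 0.0474), or −1.21 relative to the median of all probes, or by 1.83 once knockout replicate 2 was left out (adjusted p = 0.0136). The wild type difference of −1.12 missed the threshold (adjusted p = 0.0554) and passed at 0.0276 without that array.

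The Bcl2l1 downstream probe read 4.27 and 4.41 in 26 dpp knockout, 4.48 and 4.45 in 26 dpp wild type, 3.62 and 3.69 in 17 dpp knockout, and 3.53 and 3.63 in 17 dpp wild type. Both ages formed tight sets that did not overlap. In knockout the difference was 0.69 (limma adjusted p = 0.0858), or 0.62 with knockout replicate 2 left out (adjusted p = 0.0365). The probe rose in wild type by 0.88 (SE 0.222, adjusted p = 0.0272), or 1.36 relative to all probes. The upstream probe read −2.28 and −3.79 in 26 dpp knockout, −2.35 and −2.31 in 26 dpp wild type, −3.12 and −3.43 in 17 dpp knockout, and −3.56 and −4.09 in 17 dpp wild type. Its direction was the same, with differences of 0.24 in knockout (adjusted p = 0.747) and 1.50 in wild type (adjusted p = 0.0557), and 26 dpp knockout replicate 2 was the one 26 dpp array within the 17 dpp range. Without that array the difference was 0.99 in knockout (adjusted p = 0.0358) and passed at 0.00379 in wild type.

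The effector genes had age differences of opposite sign. Bax (chr7:52717122-52717181) read 1.22 and 0.30 in 26 dpp knockout, 1.39 and 1.12 in 26 dpp wild type, 2.94 and 2.71 in 17 dpp knockout, and 2.53 and 1.60 in 17 dpp wild type. All 26 dpp arrays were below all 17 dpp arrays, and 17 dpp wild type replicate 2 came nearest to them. Bax fell in knockout by 2.06 (SE 0.442, limma adjusted p = 0.0346), or −1.73 relative to all probes, and by 1.60 without knockout replicate 2 (adjusted p = 0.0238). The wild type difference was −0.81 (adjusted p = 0.167), and the difference between the genotypes' age effects, which is also the difference of the knockout effects, was −1.25 (SE 0.625, adjusted p = 0.792).

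Bak1 (chr17:27156807-27156866), whose protein does the same work as Bax, read 1.03 and 1.13 in 26 dpp knockout, 1.09 and 1.11 in 26 dpp wild type, 0.34 and 0.22 in 17 dpp knockout, and 0.07 and 0.04 in 17 dpp wild type. Replicates lay close together, and every 26 dpp array was above every 17 dpp array. In knockout the difference was 0.80 (limma adjusted p = 0.0604), or 0.74 with knockout replicate 2 left out (adjusted p = 0.021). Bak1 rose in wild type by 1.05 (SE 0.221, adjusted p = 0.0183), or 1.52 relative to all probes.

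Hrk, a BH3-only gene whose product binds Bcl2 and Bcl-xL, had the widest range of the 12 probes over the arrays. It (chr5:118639423-118639482) read −7.55 and −4.16 in 26 dpp knockout, −6.21 and −7.63 in 26 dpp wild type, −0.21 and −1.63 in 17 dpp knockout, and −1.22 and −0.72 in 17 dpp wild type. Of the 26 dpp arrays only knockout replicate 2 was well above background. In knockout Hrk fell by 4.94 on the log2 scale (SE 1.15, limma adjusted p = 0.0412), or −4.61 relative to all probes, and by 6.63 without replicate 2 (adjusted p = 0.00301), a fitted value because that lone array was below background. In wild type it was at least 22.3-fold lower at 26 dpp (adjusted p = 0.0153), measured as the 17 dpp mean against, per 26 dpp array, the higher of the probe's own signal and the lowest signal well above background. That bound holds for the scaling used here. Under the other scalings the fitted difference was as small as −2.32 in knockout and −2.53 in wild type, both passed.

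The other BH3-only probes gave 1 call. The Bcl2l11 Ensembl probe read −5.40 and −4.23 in 26 dpp knockout, −7.52 and −5.97 in 26 dpp wild type, −5.16 and −5.58 in 17 dpp knockout, and −4.85 and −4.80 in 17 dpp wild type. It was near background throughout, and below it on both wild type arrays at 26 dpp and on 17 dpp knockout replicate 2. In wild type it was at least 1.54-fold lower at 26 dpp in the scaling used here (limma adjusted p = 0.0456), a call lost under 6 alternatives: normexp with the 75th percentile (difference −0.50, adjusted p = 0.132) or with quantile scaling (−0.27, 0.247), quantile normalization (0.052), no filter on dim probes (0.0631), a variance trend (0.0513) and the replicate number as a block (0.0516). The Bcl2l11 RefSeq probe showed no such shift: it read −1.41 and −2.07 in 26 dpp knockout, −1.83 and −0.93 in 26 dpp wild type, −1.29 and −1.52 in 17 dpp knockout, and −1.18 and −1.73 in 17 dpp wild type. Its age differences were −0.33 in knockout (−0.0005 without replicate 2) and 0.07 in wild type (SE 0.419 each), with overlapping groups, so the 2 Bcl2l11 probes gave different values in wild type.

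Bbc3 (chr7:16903403-16903462), encoding Puma, read −0.01 and 0.00 in 26 dpp knockout, 0.35 and −1.0 in 26 dpp wild type, 0.49 and 0.72 in 17 dpp knockout, and 0.43 and 0.88 in 17 dpp wild type. Its 26 dpp arrays were all below its 17 dpp arrays, by −0.61 in knockout (limma adjusted p = 0.366, and −0.62 with 0.385 without replicate 2) and −0.98 in wild type (adjusted p = 0.124). Pmaip1, encoding Noxa, a p53 target, read −0.48 and 1.22 in 26 dpp knockout, −0.37 and −0.92 in 26 dpp wild type, 0.91 and 1.34 in 17 dpp knockout, and 0.85 and 1.00 in 17 dpp wild type. Knockout replicate 2 at 26 dpp was again within the 17 dpp range, and the other 26 dpp arrays were below it. The Pmaip1 difference was −0.75 in knockout (adjusted p = 0.364) and −1.57 in wild type (adjusted p = 0.0649). Without replicate 2 Pmaip1 fell in both, by 1.61 in knockout (adjusted p = 0.0112) and by 1.57 in wild type (adjusted p = 0.00451).

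Fas ligand and its receptor had age differences of opposite sign in wild type. Fasl (chr1:163711056-163711115) read −2.57 and −6.17 in 26 dpp knockout, −2.66 and −2.17 in 26 dpp wild type, −5.47 and −4.90 in 17 dpp knockout, and −5.75 and −5.96 in 17 dpp wild type. It was well above background on 3 of 4 arrays at 26 dpp and on 1 of 4 at 17 dpp, and 26 dpp knockout replicate 2 was the lowest of all 8. In knockout the difference was 0.81 (SE 1.07, limma adjusted p = 0.596), and without replicate 2 Fasl rose by 2.61 (SE 0.348, adjusted p = 0.00367). In wild type Fasl was at least 9.77-fold higher at 26 dpp (adjusted p = 0.0437); that bound holds for the scaling used here, and under the other scalings the fitted difference was 1.22 to 3.39, each passed. The wild type call was lost with the replicate number as a block (limma adjusted p = 0.0606) and without the filter on dim probes (adjusted p = 0.0612). Since Fasl was tested only through its level in 26 dpp wild type, that call is a description.

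Fas (chr19:34402164-34402223, 2 spots) read −2.48 and −0.14 in 26 dpp knockout, −1.98 and −2.89 in 26 dpp wild type, −0.92 and −1.14 in 17 dpp knockout, and −0.92 and −0.06 in 17 dpp wild type. The 26 dpp arrays were below the 17 dpp arrays, except for knockout replicate 2, which lay inside their range. The differences were −0.28 in knockout (limma adjusted p = 0.806) and −1.94 in wild type (adjusted p = 0.0864). Without replicate 2 they were −1.45 in knockout (adjusted p = 0.0582) and −1.94 in wild type, where Fas then passed (adjusted p = 0.0103).

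Counted by overlap alone, 2 probes were above and 4 below in all 26 dpp arrays in knockout, beside 21.3% and 39% of all probes, and 4 above and 7 below in wild type, beside 31.3% and 55.7%. Under the other scalings tried (normexp with either scaling, quantile normalization and the authors' value table) no called member changed direction. Calls were lost for Bcl2 in knockout under both normexp settings (adjusted p = 0.0555 and 0.0553) and quantile normalization (0.0607), so that 2 to 4 members passed in knockout and 4 to 6 in wild type, while the median of all probes in wild type moved between −0.26 and −0.56.

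**Figure D2:**
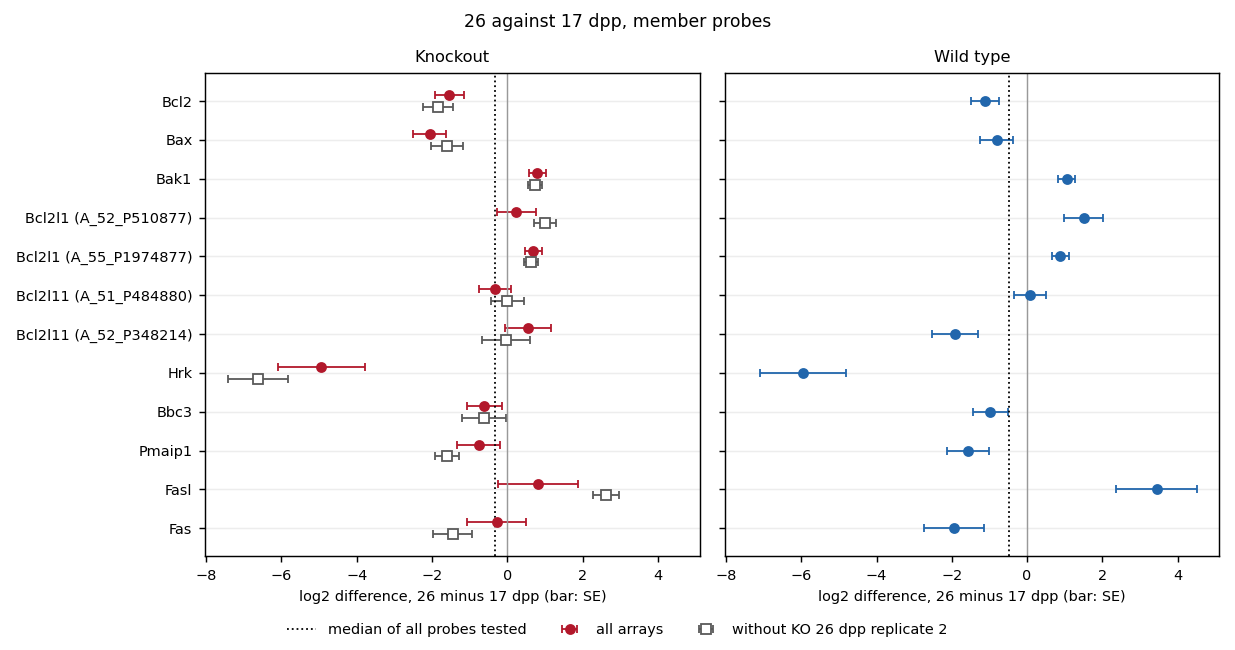
Log2 difference, 26 minus 17 dpp, of the 12 probes (horizontal axis, bars 1 SE) in knockout testes, with and without 26 dpp knockout replicate 2, and in wild type testes; the dotted line is the median of all probes tested. Leaving out that array moved Fasl in knockout to 2.61 and Hrk to −6.63; the fitted wild type values are 3.44 and −5.95, each against a group below background.

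The promoters of Fasl and Hrk are shown because these genes had the largest age differences of the 12 probes in wild type, in opposite directions. The 300-base windows around the transcription start are RefSeq's on GRCm38.p6: Fasl at chr1:161788446-161788745 on the minus strand and Hrk at chr5:118169514-118169813 on the plus strand. Capitals mark 2 motifs on either strand, the cyclic AMP response element half-site (TGACG, or CGTCA on the other strand) and the GC box (GGGCGG, or CCGCCC), which do not overlap here.
Fasl promoter: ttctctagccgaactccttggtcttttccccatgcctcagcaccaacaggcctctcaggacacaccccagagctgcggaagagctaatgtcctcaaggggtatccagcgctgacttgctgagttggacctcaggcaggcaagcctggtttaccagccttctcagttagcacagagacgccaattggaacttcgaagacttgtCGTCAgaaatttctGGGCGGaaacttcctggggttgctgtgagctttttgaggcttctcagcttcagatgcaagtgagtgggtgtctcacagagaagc
Hrk promoter: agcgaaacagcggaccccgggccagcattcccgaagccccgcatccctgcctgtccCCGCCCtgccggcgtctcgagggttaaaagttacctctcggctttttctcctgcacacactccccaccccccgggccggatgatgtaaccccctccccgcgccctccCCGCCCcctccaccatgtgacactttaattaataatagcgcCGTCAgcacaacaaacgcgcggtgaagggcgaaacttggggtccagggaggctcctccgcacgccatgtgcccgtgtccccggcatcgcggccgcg

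Both windows held 1 half-site, and the GC box matched once in Fasl and at 2 places in Hrk. Of 14 windows for 9 member genes, 4 held the half-site and 10 the GC box, beside 20.8% and 35.7% of 32851 mouse promoter windows of this length. None held the full element TGACGTCA or the letters TATAAA, found in 1.79% and 13.6% of all windows. GC content was 53.3% for Fasl and 65.7% for Hrk. These matches describe letters in a window.

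Knockout against wild type gave no call for any of the 12 probes at either age, averaged over both or as a difference between ages. At 26 dpp 0 passed, beside 0.00793% of all probes, with adjusted p from 0.546 to 0.959 in limma and 1 of 12 at an unadjusted p under 0.05, beside 2.86% of all probes. That 1 was the Bcl2l11 Ensembl probe, which differed by 1.93 (SE 0.607, unadjusted p = 0.0183, adjusted p = 0.546). Both wild type arrays were below background for it, so the size is a bound of at least 1.55-fold higher in knockout in the scaling used here. That bound rests on knockout replicate 2. Replicate 1 read −5.40, close to the lowest signals well above background on the wild type arrays (−5.47 and −5.43). The widest other differences were −1.95 for Fasl (SE 1.07), 1.12 for Fas (SE 0.789), 1.07 for Hrk (SE 1.15), 1.02 for Pmaip1 (SE 0.569) and −0.71 for the Bcl2l1 upstream probe (SE 0.512), each with overlapping groups. By overlap alone, 1 probe was higher on both knockout arrays, the Bcl2l11 Ensembl probe, and 1 lower, the Bcl2l1 downstream probe, beside 16.1% and 16.4% of all probes.

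These sizes changed with the knockout array that was left in. Without replicate 2 the differences were −0.15 for Fasl, −0.05 for Fas, −0.63 for Hrk, 0.17 for Pmaip1 and 0.05 for the Bcl2l1 upstream probe. The Bcl2l11 Ensembl probe stood at 1.35 (SE 0.635), a fitted value because both wild type arrays were below background for it. Without replicate 1, leaving the array that stands apart as the lone knockout sample, 6 probes passed: Fasl at −3.75 (adjusted p = 0.00226), Pmaip1 at 1.87 (0.0103), the Bcl2l1 upstream probe at −1.46 (0.0152), Fas at 2.29 (0.0203), the Bcl2l11 Ensembl probe at 2.71 (0.0285) and Hrk at 2.76 (0.0427). That fit called 16149 of all probes, or 42.7%.

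At 17 dpp 0 of 12 passed, beside 0.0741% of all probes (0.00529% higher and 0.0688% lower), each with an adjusted p of 0.999995 in limma, and 0 of 12 had an unadjusted p under 0.05, beside 1.49%. The widest difference was 0.76 for Bax (SE 0.442), and Bcl2 differed by 0.53 (SE 0.381), Bak1 by 0.23 (SE 0.221), the Bcl2l1 upstream probe by 0.55 (SE 0.512) and Fasl by 0.68 (SE 1.07). These 5 probes were higher on both knockout arrays than on both wild type arrays, beside 16.3% of all probes, and 1, the Bcl2l11 Ensembl probe at −0.54, was lower on both, beside 12.5%. The remaining 6 overlapped, with differences between −0.54 for Fas and 0.20 for Pmaip1. Fasl was not well above background on either wild type array or on knockout replicate 1. Such values have no order, so the separation of Fasl was not a measured one. The Bcl2l11 Ensembl probe was not well above background on knockout replicate 2.

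Averaged over ages the differences ran from −0.64 for Fasl to 0.69 for the Bcl2l11 Ensembl probe (0.26 and 0.40 without 26 dpp knockout replicate 2), and 0 of 12 passed or had an unadjusted p under 0.05, beside 0% and 2.23% of all probes. The knockout effect differed between ages for 0 of 12, beside 0% of all probes, with 1 at an unadjusted p under 0.05, the Bcl2l11 Ensembl probe, beside 2.09%. Without 26 dpp knockout replicate 1, 2 probes passed in the average, beside 26.6% of all probes, and 5 in the difference between ages, beside 29.9%, and without any other single array 0 passed in either.

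**Figure D3:**
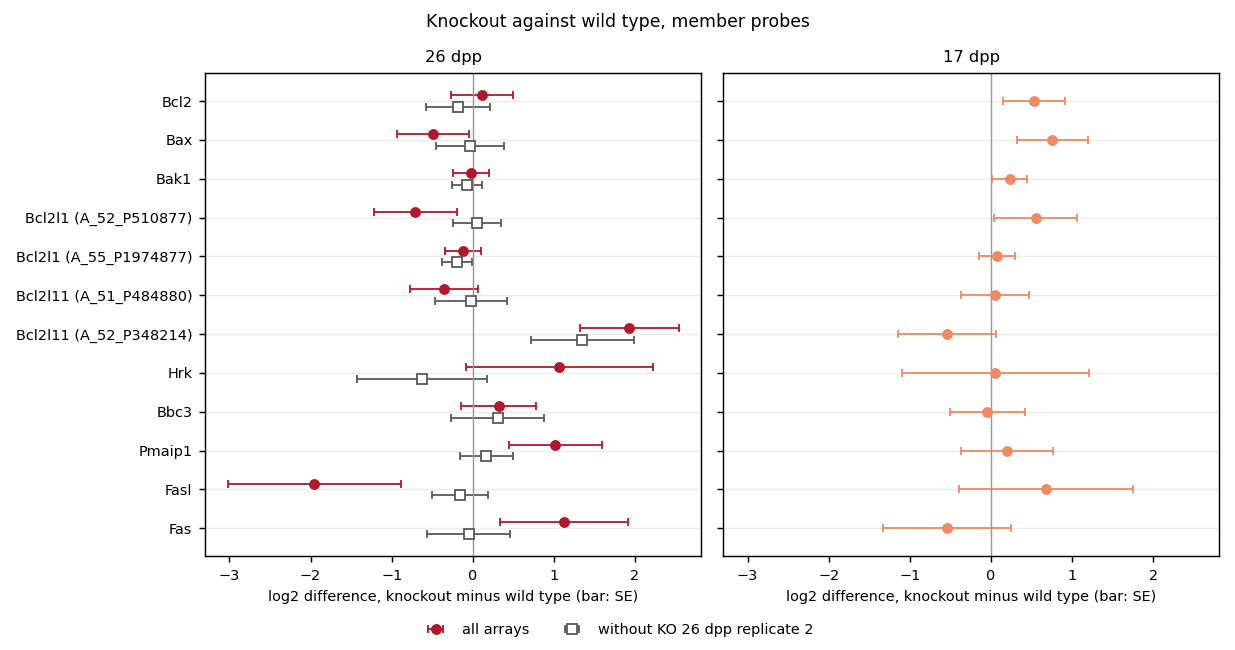
Log2 difference, knockout minus wild type, of the 12 probes (horizontal axis, bars 1 SE) at 26 dpp, with and without knockout replicate 2, and at 17 dpp. At 26 dpp Fasl stands at −1.95 with all arrays and at −0.15 without that array, and at 17 dpp the widest difference is 0.76, for Bax.

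Germ cell markers moved with age and with the array that stands apart. The summed signal of 10 elongating spermatid markers, such as protamines and transition proteins, was 1012 and 99.7 times the array's 75th percentile in 26 dpp knockout, 761 and 1767 in 26 dpp wild type, 11.5 and 21.2 in 17 dpp knockout, and 14.0 and 15.1 in 17 dpp wild type. Round spermatid markers (10 genes) summed to 240 and 47.7, 234 and 290, 2.56 and 11.2, and 4.91 and 7.13 in the same groups, and spermatogonia markers (10 genes) to 31.3 and 112, 29.1 and 27.2, 136 and 108, and 102 and 104. By these sums, knockout replicate 2 at 26 dpp lay between the ages on both spermatid lists. It lay with the 17 dpp arrays on the spermatogonia list. On it 8 of 10 markers of each spermatid list were well above background, and 10 of 10 on the other 26 dpp arrays. By median log2 level it stood nearer to the 17 dpp arrays on both spermatid lists. For elongating spermatids the median was −4.16, against −5.64 to −4.47 at 17 dpp and 5.85 to 7.32 on the other 26 dpp arrays. For round spermatids it was −2.50, against −3.64 to −2.87 and 3.51 to 4.30. On the spermatocyte list (12 genes) that array's sum lay with the 26 dpp arrays and its median log2 level between the ages. Sums were 411 and 441 in 26 dpp knockout and 444 and 450 in 26 dpp wild type. At 17 dpp they were 78.6 and 160 in knockout and 106 and 125 in wild type. The median was 2.40 on that array, against 3.42 to 3.61 on the other 26 dpp arrays and −0.10 to 1.07 at 17 dpp. Sertoli cell markers (10 genes) summed to 463 on that array, against 201 to 224 on the other 26 dpp arrays and 451 to 492 at 17 dpp, but their median log2 level there was 1.97, against 2.17 to 2.33 on the other 26 dpp arrays and 3.39 to 3.77 at 17 dpp. Among the members, its values for Pmaip1, Fas and the Bcl2l1 upstream probe lay in the 17 dpp range and those for Bbc3 and the Bcl2l1 downstream probe in the 26 dpp range. Its values for Bcl2 and Hrk lay between the ranges and those for the other 5 probes outside both, for Bak1 just above the 26 dpp range (1.13 against at most 1.11) and for Fasl below background, where values have no order. By the limma test with age, 0 of 10 spermatogonia and 3 of 10 Sertoli cell markers fell in knockout and 6 and 7 in wild type, while 2 of 10 round and 1 of 10 elongating spermatid markers rose in knockout and 10 of each in wild type. Over all probes 7.84% fell and 6.81% rose in knockout, and 25.5% fell and 17.9% rose in wild type. Leaving out 26 dpp knockout replicate 2 moved the median knockout age difference of the spermatogonia list from −1.24 to −2.04. That of the Sertoli cell list moved from −1.08 to −1.65, of round spermatids from 4.33 to 6.68, and of elongating spermatids from 5.24 to 11.2. The part of these cell types in the members' differences was not tested.

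For Fasl, which T and NK cells use to kill, 10 of 13 T and NK cell markers were tested. They summed to 3.65 and 4.09 in 26 dpp knockout, 3.83 and 4.34 in 26 dpp wild type, 4.21 and 5.0 in 17 dpp knockout, and 4.56 and 4.30 in 17 dpp wild type, so the sums of the ages overlapped. Their median log2 level was −2.20 to −2.02 on the 26 dpp arrays, against −2.71 to −2.42 on the 17 dpp arrays, so the median separated the ages where the sum did not. The median of the per-gene differences, 26 minus 17 dpp, was nonetheless below 0. It was −0.60 in knockout (−0.52 without 26 dpp knockout replicate 2) and −0.25 in wild type, beside −0.33 and −0.47 over all probes. The part of these cells in the Fasl difference was not tested. Cd8a, Gzmb and Ncr1 of that list were not well above background on both arrays of any group. Leydig cell markers (7 genes) summed to 0.904 on 26 dpp knockout replicate 2, against 11.1 to 24.3 on the other 7 arrays. At 17 dpp epididymis markers were well above background in wild type alone: 8 of 8 tested markers on each wild type array, with sums of 19.9 and 62.1, against 0 of 8 on each knockout array, with sums of 0.0410 and 0.0420. Adipocyte markers (5 genes) summed to 1.39 and 1.04 in 17 dpp knockout, against 4.02 and 216 in 17 dpp wild type. What these tissues contribute to the members' levels at 17 dpp was not tested.

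**Figure D4:**
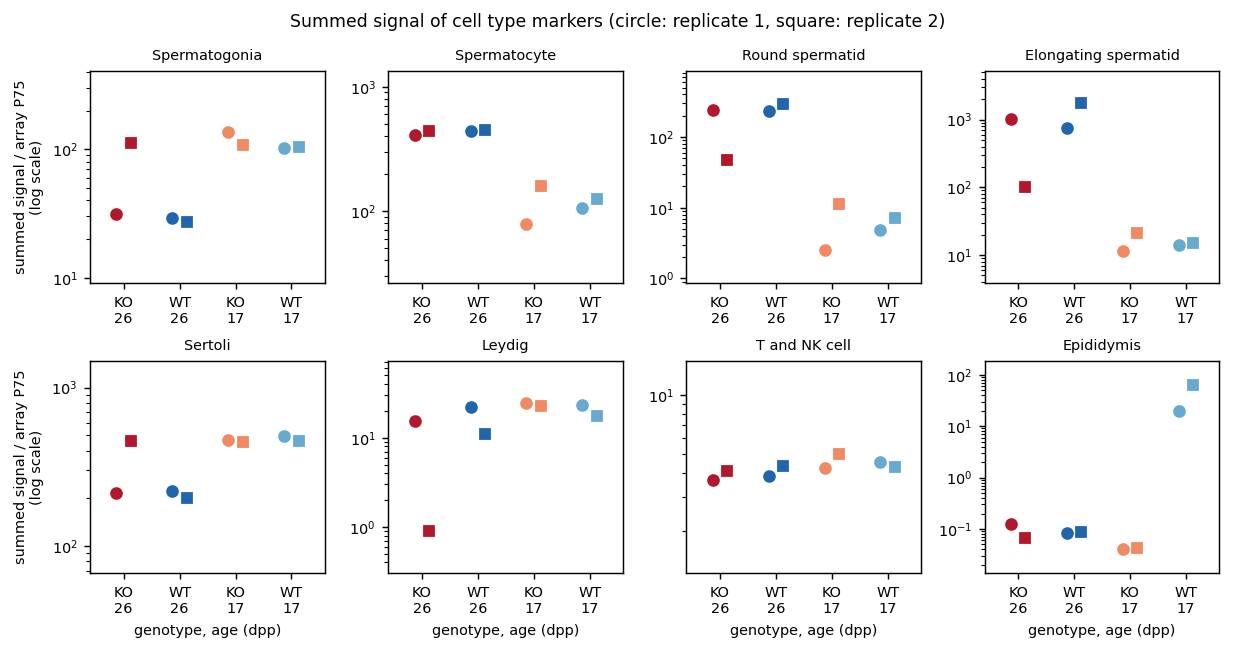
Summed signal of 8 marker lists on each array (vertical axis, relative to the array's 75th percentile, log scale) in knockout and wild type testes at 26 and 17 dpp. Elongating spermatid markers sum to 99.7 on 26 dpp knockout replicate 2, against 761 to 1767 on the other 26 dpp arrays, and epididymis markers to 19.9 and 62.1 in 17 dpp wild type, with the other 6 arrays at 0.127 or below.

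Other genes of the same pathways had a median age difference below 0 in both genotypes, as did all probes tested (−0.33 in knockout and −0.47 in wild type). Of 64 tested genes in 4 lists, 3 rose and 13 fell in knockout (median −0.67), and 8 rose and 33 fell in wild type (median −1.37), beside 6.81% and 7.84%, and 17.9% and 25.5%, of all probes. The knockout counts, here and by list below, include 26 dpp knockout replicate 2 and were not compared with those in wild type. Without that array the median in knockout was −1.12, beside −0.51 over all probes. The knockout medians of the lists were then −1.50 to −1.01, against −1.10 to −0.40 with all arrays. In knockout against wild type 0 of 64 passed at either age, with or without that array. The median knockout difference at 26 dpp was 0.38, beside 0.07 for all probes. Within the lists it was 0.30 to 0.64 with all arrays and −0.04 to 0.02 without knockout replicate 2.

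Among 13 other Bcl2 family genes, 1 rose and 2 fell in knockout, and 2 rose and 5 fell in wild type. Bmf, a BH3-only gene, fell by 2.03 in knockout (limma adjusted p = 0.0398, and −2.60 without replicate 2) and by 2.91 in wild type (adjusted p = 0.0106). Bcl2l2, encoding the anti-apoptotic Bcl-w, which spermatogenesis requires in mice, fell by 1.45 in knockout (adjusted p = 0.0424) and by 1.73 in wild type (adjusted p = 0.0159). Bcl2l15 rose by 3.80 in knockout (adjusted p = 0.0192) and by 2.30 in wild type (adjusted p = 0.023). In wild type Bok, a relative of Bax, fell by 2.23, and the BH3-only genes Bik and Bid fell by 1.86 and 1.83, while Bad, another BH3-only gene, rose by 1.35. Mcl1, an anti-apoptotic relative of Bcl2, differed by −0.15 in knockout and −0.73 in wild type without passing, and by −0.76 in knockout without replicate 2, where it passed (adjusted p = 0.0186). Bcl2a1d has near-identical paralogues that its probe may also read. With all arrays its differences of 0.25 in knockout and 1.31 in wild type did not pass. The knockout value joins unlike arrays: Bcl2a1d read −0.83 and −5.47 in 26 dpp knockout, with replicate 2 not well above background. In 17 dpp knockout it read −3.12 and −3.66.

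On the death receptor side 0 of 14 genes rose, 6 fell in knockout and 9 in wild type. Fadd, the adaptor that Fas recruits, fell by 1.21 in knockout (limma adjusted p = 0.028) and by 1.05 in wild type (adjusted p = 0.02), and Casp8, the caspase it binds, by 1.70 in each (adjusted p = 0.0297 in knockout and 0.0161 in wild type). Also lower in both were the TNF receptor gene Tnfrsf1a (−1.48 in knockout and −1.76 in wild type), its adaptor Tradd (−1.34 and −1.70), the death receptor gene Tnfrsf25 (−1.69 and −2.12) and Faim2, an inhibitor of Fas signalling (−2.17 and −2.57). Tnfsf10, encoding the death ligand TRAIL, fell by 1.80 in wild type and differed by −1.99 in knockout (adjusted p = 0.0516). On 26 dpp knockout replicate 2 Faim2 (−5.75) and Tnfsf10 (−5.18) were not well above background, so their sizes in knockout are uncertain. Cflar, which blocks caspase-8, did not pass in either.

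Of 22 genes for mitochondrial factors and caspases, 2 rose and 2 fell in knockout, and 4 rose and 13 fell in wild type. Apaf1, which builds the apoptosome, was lower in both (−1.51 in knockout, limma adjusted p = 0.0203, and −1.85 in wild type, adjusted p = 0.00727). Cyct, the testis form of cytochrome c, rose in wild type by 2.07 and differed by 2.00 in knockout (adjusted p = 0.0506, and 2.02 with 0.0434 without replicate 2). Diablo, which counters inhibitors of apoptosis, rose in wild type by 1.57. Vdac2, a channel of the outer membrane that binds Bak, rose by 1.15 in knockout and 1.48 in wild type, and Birc5, encoding survivin, by 0.96 and 1.20. Among the largest falls in wild type were those of Xiap, an inhibitor of caspases (−2.02), the channel gene Vdac1 (−1.99) and Casp2 (−1.93).

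Among 15 genes of p53 and its targets 3 fell in knockout, and 2 rose and 6 fell in wild type. Trp53 itself fell by 1.32 in knockout (limma adjusted p = 0.0349) and by 1.43 in wild type (adjusted p = 0.0162), and its targets Phlda3 (−1.75 and −2.12) and Sesn2 (−1.09 and −1.02) were lower in both. In wild type Gadd45a fell by 2.51, Ccng1 by 1.37 and Aen by 1.13, while Mdm4, an inhibitor of p53, rose by 2.12 and Zmat3 by 0.99. Cdkn1a differed by 0.02 in knockout and −0.64 in wild type without passing.

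**Figure D5:**
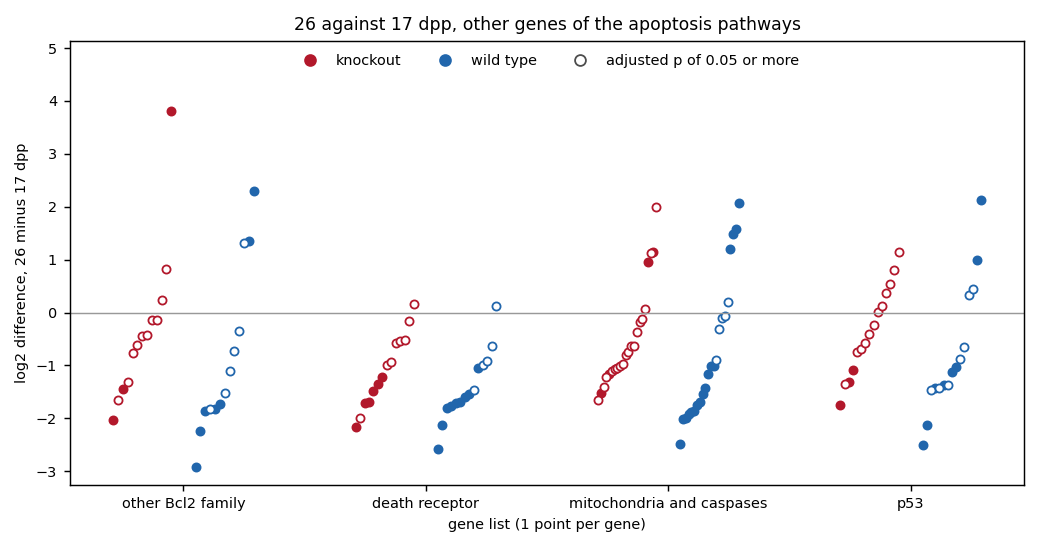
Log2 difference, 26 minus 17 dpp (vertical axis), of the tested genes in 4 lists of apoptosis genes, sorted within each list, in knockout and wild type testes. Filled points passed an adjusted p of 0.05. In wild type 33 of 64 genes fell and 8 rose, and the highest point is Bcl2l15 in knockout at 3.80.

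The genes most like each called member over the 8 arrays, among 18189 genes with a current symbol, are given as a description, since the arrays share the 2 ages. For Fasl they were H4c3, Zbtb25 and Abcf3 (Pearson r of 0.995 to 0.996), and for Hrk Tradd, Dusp8 and Anxa4 (0.997 to 0.998). Bcl2 was most like Podxl, Ro60 and Cdh15 (0.985 to 0.989), Bax like Rps19-ps3, Pacc1 and Kmt5c (0.976 to 0.990), and Bak1 like Henmt1, Vstm2l and Six2 (0.990 to 0.993). The Bcl2l1 downstream probe was most like Faf2, Eapp and Zkscan6 (0.994 each), and the Bcl2l11 Ensembl probe like Dmxl1, Olfr190 and Vwa8 (0.929 to 0.956). Without 26 dpp knockout replicate 2 these correlations were 0.909 to 0.980 for the Bcl2l11 Ensembl probe and 0.970 to 0.999 for the other members.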

How the data were processed

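Total RNA of 8 testis samples was labelled with Cy3 and hybridised to 1 Agilent array each, per the labels' protocols. The authors deposited the scanner files of Agilent Feature Extraction (version 11.5.1.1, per the file headers), whose processed signals are intensity values on a linear scale, corrected for background, without scaling between arrays. The authors' deposited value table holds log2 values; each column followed log2 of the processed signal (r from 0.999906 to 0.999946) near the 75th percentile scaling. How it combined spots stays unknown. Column medians were −3.62 and −3.84 in 26 dpp knockout, −3.59 and −3.64 in 26 dpp wild type, −3.67 and −3.63 in 17 dpp knockout, and −3.69 and −3.69 in 17 dpp wild type.

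Here the signal was divided by the array's 75th percentile before log2, the spots of each probe were averaged without outlier-flagged ones (103 to 200 an array), and saturation flags numbered 0. A probe was tested if some group had it well above background on its 2 arrays: 37904 met this, less 94 with no value on an array. limma 3.58.1 in R 4.3.3 fitted 1 mean per group over all 8 arrays (4 residual and 2.16 prior degrees of freedom, two-sided, Benjamini-Hochberg over all probes). On simulated data for 26 against 17 dpp in wild type (37810 probes) it recovered 0 of 50 probes changed by 1 on the log2 scale, 4 of 50 changed by 2, 44 of 50 changed by 4 and 45 of 50 changed by 6, with 7 unchanged probes called. So few probes were changed there that the adjusted threshold was stricter than in the data, where 16417 passed. These rates therefore do not carry over to that test, where the Bcl2l1 downstream probe passed at a difference of 0.88. Small changes could still be missed.

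The number of arrays limits the precision. Pathway and marker genes are the probe with the highest mean; their symbols were updated through RefSeq accessions (27509 probes) or current symbols (3549), and 24623 probes kept the file's name. Every member probe and Ip6k1 are named, as are the pathway genes past the threshold (the 4 largest rises and falls where over 8 passed) and the 3 genes most like a called member; some genes that this rule picks are not reported here. Mcl1, Bcl2a1d, Cflar and Cdkn1a were named after their values were seen. The members and lists were chosen with earlier results of these data known. Probe coordinates are mm9, per the file headers, and no genome was used, so no exon or UTR is assigned. Alternatives are given in the closing section.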

Additional observations from a re-analysis of the deposited data

Results flagged for a closer look

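The Bcl2l11 Ensembl probe stood out because its knockout effect turned round between the ages. It was higher on both knockout arrays than on both wild type arrays at 26 dpp, by 1.93, and lower on both at 17 dpp, by −0.54. The difference of these effects was 2.48 (SE 0.858) and did not pass over all probes (limma unadjusted p = 0.0271, adjusted p = 0.792). Under the other scalings it was 0.50 to 2.70, with the knockout effect between 0.38 and 2.06 at 26 dpp and between −0.64 and −0.05 at 17 dpp. The probe was not well above background on both wild type arrays at 26 dpp nor on 1 of 2 knockout arrays at 17 dpp, and without 26 dpp knockout replicate 2 the difference was 1.89 (adjusted p = 0.999936). The other Bcl2l11 probe gave −0.40.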

How the results depend on the processing

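In knockout (26 against 17 dpp) the 3 calls became 1 with no filter, 5 with a variance trend, 0 with array weights, 1 with the replicate block, 0 with 4 arrays only, and 0 to 8 as 1 array was left out. In wild type the 5 member calls became 3 with no filter on dim probes, 9 with array weights, 3 with the replicate block and 9 with its 4 arrays only, and 0 to 9 as 1 array was left out. Calls for knockout against wild type ranged from 0 to 6 at 26 dpp, 0 to 2 in the average and 0 to 5 in the difference between ages as 1 array was left out, the highest counts beside 16149, 10064 and 11316 of all probes, and stayed at 0 under the other alternatives; at 17 dpp they were 0 under every alternative run. Under the 4 other scalings 2 to 4 members passed with age in knockout and 4 to 6 in wild type. Ip6k1 passed in the average without 26 dpp knockout replicate 1 (−1.15, limma adjusted p = 0.00596; −1.15 to −1.09 as 1 array was left out). No called value changed direction (0 reversals). The cause of these changes was not tested.

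Over all probes, limma called 5538 in knockout with age, 67 with array weights, 0 with 4 arrays only (7500 at an unadjusted p under 0.05), 1568 with the replicate block, 37 without either wild type array at 17 dpp, 34 without either at 26 dpp, 0 without knockout replicate 1 at 17 dpp (7727 at an unadjusted p under 0.05), 1249 without replicate 2, and 21552 without 26 dpp knockout replicate 2. In wild type it called 16417, 27492 with array weights, 25832 with 4 arrays only, 223 and 69 without wild type replicate 1 or 2 at 17 dpp, 0 without wild type replicate 1 or 2 at 26 dpp (15721 and 12231 at an unadjusted p under 0.05), 9611 without either knockout array at 17 dpp and 25404 without either at 26 dpp. For knockout against wild type it called 3 at 26 dpp (11 without knockout replicate 2, 16149 without replicate 1, 5 with quantile normalization, and 0 in most others, where 360 to 1790 had an unadjusted p under 0.05) and 28 at 17 dpp (from 0 to 52).

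The replicate number pairs no samples by the labels; deviations of same-numbered arrays correlated at −0.37 between the 26 dpp groups and 0.11 between the 17 dpp groups. The block called 1568 probes with age in knockout and 12353 in wild type. Slide and scan as a block was not run, since there was 1 of each. With 2 arrays per group and signals near background for Fasl, Hrk and the Bcl2l11 Ensembl probe, their sizes are uncertain.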
